A study of Rattus norvegicus with 4 samples.

Results

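Cell cycle and DNA replication genes were followed across 4 expression arrays of rat vessels. The set holds 44 genes chosen by symbol, 17 with roles in S phase (DNA replication and nucleotide supply) and 27 with roles in mitosis, among 16580 genes that could be named on the array. Of these members, 39 had a probe matched through its RefSeq identifier. Where a gene had several probes the brightest one was used. Vessels came from male rats, either Wistar control rats (WT) or rats with a deletion of PKCbeta (KO), a protein kinase C isoform, and were studied untreated or after isolation and exposure to angiotensin II (Ang II), a vasoconstrictor peptide, for 24 h. There were thus control and Ang II vessels of either genotype (WT control and KO control, WT Ang II and KO Ang II), and each group was represented by 1 array of Cy3-labelled total RNA. The series' design text counts 4 rats of each genotype, and whether their RNA was pooled, the age of the rats, which vessel was taken, the dose of Ang II, how untreated vessels were kept and how the deletion was made are stated nowhere in the labels. With 1 array per group, a difference between 2 arrays has no replicate check, and spread between animals could not be measured.

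The cell cycle is driven by cyclins bound to cyclin-dependent kinases. E2F factors induce the genes of G1/S and of DNA replication, among them the MCM helicase subunits, the sliding clamp Pcna and the enzymes that make deoxynucleotides. Genes of G2 and mitosis, among them Cdk1, the B-type cyclins, the mitotic kinases and the kinesins that build the spindle, are induced later, when the MuvB core of the DREAM complex exchanges its repressive partners for B-MYB and FOXM1. MuvB contacts DNA at the cell cycle homology region (CHR), often with NF-Y bound at nearby CCAAT boxes. Smooth muscle cells of a healthy adult artery rarely divide, and proliferation of vessel wall cells is a textbook feature of vascular remodelling, for which Ang II is a known stimulus.

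Promoter windows show how the members differ in sequence between the phases. RefSeq windows on the rat assembly GRCr8, each of 300 bases from 250 before to 50 after a start site, were found for 35 of the 44 members. Uhrf1 had 3 windows, which gave 37 in all. None was listed for Ccne2, Rrm2, Mcm4, Cdc6, Ccna2, Aurkb, Tpx2, Ube2c and Racgap1. Both strands were searched for the E2F words (TTCCCGC, its variant TTCGCGC, the form TTGCCGC and lastly TTGGCGC), the CHR words (TTTGAA and its variant TTCGAA) and the NF-Y word (CCAAT), and a match is a run of letters, not a measured binding site. Windows of 5 members are shown, 3 mitosis members (Cdk1, Mki67 and Ect2) that were at least 2-fold lower in KO and 2 helicase subunits (Mcm2 and Mcm7) that were not. They lie at chr20:19265043-19265342 on the plus strand for Cdk1, chr1:199952544-199952843 on the minus strand for Mki67, chr2:111966577-111966876 on the minus strand for Ect2, chr4:122918045-122918344 on the minus strand for Mcm2 and chr12:22163129-22163428 on the minus strand for Mcm7. Each is printed 5′ to 3′ along the gene's strand, with every word found on either strand in capitals.
Cdk1: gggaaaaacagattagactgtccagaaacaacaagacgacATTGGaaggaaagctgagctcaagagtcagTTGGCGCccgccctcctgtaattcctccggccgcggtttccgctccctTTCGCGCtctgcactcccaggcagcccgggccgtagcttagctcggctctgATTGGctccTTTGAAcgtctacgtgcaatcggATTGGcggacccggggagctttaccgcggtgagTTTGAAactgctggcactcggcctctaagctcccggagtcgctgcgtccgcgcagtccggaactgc
Mki67: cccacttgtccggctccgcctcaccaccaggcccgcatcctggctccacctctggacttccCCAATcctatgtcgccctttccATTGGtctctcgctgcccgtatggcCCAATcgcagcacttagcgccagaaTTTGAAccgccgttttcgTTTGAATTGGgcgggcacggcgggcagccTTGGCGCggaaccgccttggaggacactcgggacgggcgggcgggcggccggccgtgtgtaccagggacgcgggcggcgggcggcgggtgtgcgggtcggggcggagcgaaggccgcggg
Ect2: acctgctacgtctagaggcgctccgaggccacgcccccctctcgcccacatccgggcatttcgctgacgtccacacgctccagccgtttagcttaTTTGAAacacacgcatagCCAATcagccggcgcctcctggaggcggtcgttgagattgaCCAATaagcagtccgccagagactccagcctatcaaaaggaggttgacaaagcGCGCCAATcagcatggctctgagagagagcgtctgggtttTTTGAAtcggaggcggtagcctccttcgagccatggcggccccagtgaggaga
Mcm2: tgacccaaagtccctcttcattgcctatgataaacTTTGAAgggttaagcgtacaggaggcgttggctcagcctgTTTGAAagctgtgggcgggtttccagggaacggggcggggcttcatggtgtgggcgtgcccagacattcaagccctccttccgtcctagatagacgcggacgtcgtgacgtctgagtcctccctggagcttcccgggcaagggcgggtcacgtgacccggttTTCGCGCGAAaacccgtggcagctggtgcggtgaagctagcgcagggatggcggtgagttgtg
Mcm7: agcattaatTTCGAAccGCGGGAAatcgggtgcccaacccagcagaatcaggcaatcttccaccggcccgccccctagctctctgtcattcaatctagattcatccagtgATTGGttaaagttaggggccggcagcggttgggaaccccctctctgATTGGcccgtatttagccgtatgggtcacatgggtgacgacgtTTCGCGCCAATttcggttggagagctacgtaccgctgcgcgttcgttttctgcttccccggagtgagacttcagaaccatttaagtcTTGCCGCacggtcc

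Positions below are counted from 1 at the 5′ end of each window. The Cdk1 window held CHR words at 179 to 184 and 235 to 240, with NF-Y words at 170 to 174 and 202 to 206 near the former, and E2F words at 71 to 77 and 119 to 125. In Mki67, the CHR word at 152 to 157 ran into an NF-Y word at 157 to 161, so that they shared 1 base, and an E2F word followed at 181 to 187. Ect2 carried CHR words at 96 to 101 and 248 to 253, and its E2F word at 208 to 214 overlapped an NF-Y word at 211 to 215. In Mcm2, E2F words at 238 to 244 and at 241 to 247 overlapped on opposite strands, close to the start site, and CHR words stood at 36 to 41 and 76 to 81. Mcm7 held 4 E2F words, of which those at 200 to 206 and 203 to 209 overlapped each other and an NF-Y word at 206 to 210.

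Across the windows, E2F words were the more frequent in S-phase members and CHR words in mitosis members. E2F words were present in 11 of 15 S-phase windows (73.3%) and 5 of 22 mitosis windows (22.7%), beside 9.52% of all 33469 full-length windows in the table. CHR words were present in 3 of 15 S-phase windows (20.0%), 16 of 22 mitosis windows (72.7%) and 19.7% of all windows. The NF-Y word was common in both phases, in 10 of 15 (66.7%) and 17 of 22 (77.3%), against 37.5% of all. A CHR word together with an NF-Y word was found in 2 of 15 (13.3%) and 14 of 22 (63.6%), against 7.95% of all. The windows of Tk1, Bub1, Aurka and Melk held none of the words. Promoters that share a gene or lie head to head share sequence, and no test was made on these shares.

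**Figure D1:**
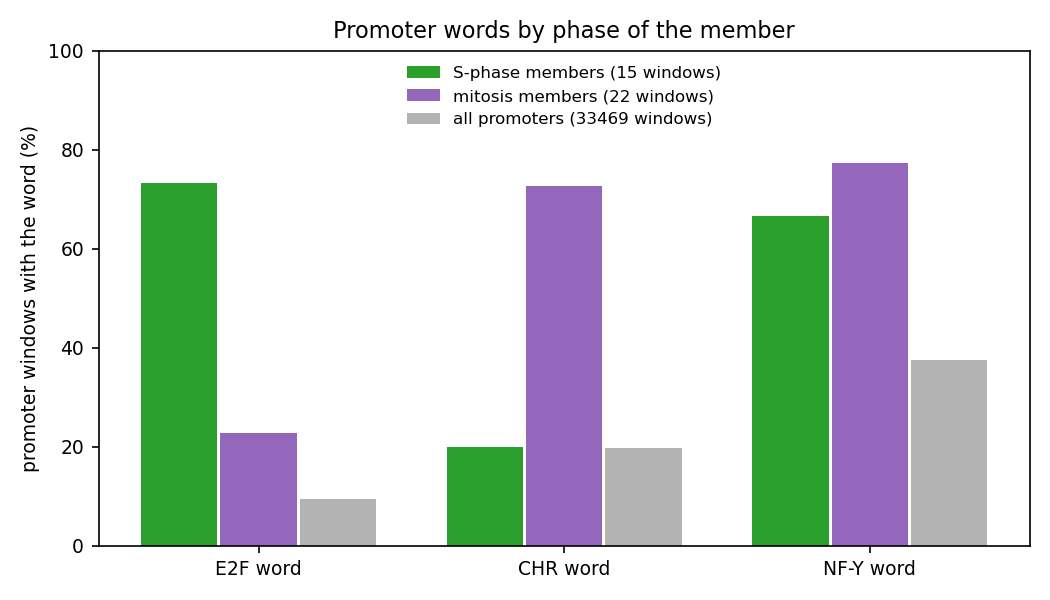
Share of promoter windows (percent, y axis) holding an E2F, CHR or NF-Y word (x axis) in S-phase members (15 windows), mitosis members (22 windows) and all 33469 windows of the table. E2F words stand at 73.3% in S-phase members and CHR words at 72.7% in mitosis members, the tallest bars of their word.

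Signals are Agilent processed signals, a background-subtracted fluorescence in arbitrary units, and a level is log2 of that signal minus the same array's log2 75th percentile, so that 0 lies at the percentile. A probe counted as well above background on an array when at least 50% of its spots carried the scanner's flag for it, and a difference against an array where it did not is a bound, taken against the higher of the probe's own level and the lowest level flagged as above background. Where the probe's own level was the higher, the bound is the difference as read and not a strict minimum. Between 40.7% and 43.6% of probes were well above background on the 4 arrays, fewer in KO (40.7% and 41.5%) than in WT (43.5% and 43.6%), and no spot was saturated. The 75th percentile itself was 58.7 (control) and 62.4 (Ang II) in WT, and 47.3 and 52.1 in KO, so the spot signals given below, which are not scaled, run lower in KO for a gene of equal level. All arrays lay on 1 slide and shared 1 scan time, and the position on the slide cannot be told apart from the group. The Prkcb probe with 9 spots read 14.8 without and 18.0 with Ang II in WT vessels, and 1.94 and 1.89 in KO vessels, below the flag. All 10 smooth muscle markers were well above background on every array.

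More members were detected in WT than in KO vessels, and the gap lay mainly with the mitosis genes. In RNA of a whole vessel, fewer cells of a type and less RNA per cell cannot be told apart. Of the 39 matched members, 27 passed the flag on 1 array or more, 12 of the 17 S-phase members and 15 of the 27 mitosis members. The mitosis members counted 14 on either WT array, 8 on the KO control array and 10 on the KO Ang II array, whereas the S-phase members counted 11 and 12 in WT and 10 on either KO array. Over all named genes the count was lower in KO too, 9442 and 9499 in WT, 8941 and 9057 in KO (control, then Ang II). Some mitosis members were dim in WT control (9.46 for Ccnb2 and 16.6 for Kif20a), though Cdk1 read 87.8. Several S-phase members were bright there (796 for Mcm2 and 651 for Fen1), and a bright gene loses the flag less easily. The part of brightness in the difference between phases was not tested. On all 4 arrays, 10 S-phase and 7 mitosis members were well above background. Well above background on both WT arrays and on neither KO array were 5 members, namely the helicase subunit Mcm6 and the mitosis genes Cdk1, Ccnb2, Nusap1 and Ect2. The same pattern held for 2.29% of the 9966 named genes detected anywhere, and the opposite pattern for 0 members and 0.251% of genes. Another 12 members were not well above background on any array and have no difference here (Cdc6, Cdt1, Gins2, Ccnb1, Aurkb, Birc5, Bub1b, Kif11, Kif23, Cenpf, Tpx2 and Hmmr). No probe was matched for Mcm5, Uhrf1, Top2a, Anln and Melk, which are not analysed here.

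Among the S-phase members, each helicase and clamp gene read in both genotypes stood within 2-fold of WT. Mcm2 and Mcm7 are subunits of the MCM helicase, which unwinds DNA at replication origins. Over 10 spots on each array, Mcm2 read 688 to 902 in WT control, 798 to 994 in WT Ang II, 635 to 771 in KO control and 650 to 770 in KO Ang II, so the spots of WT control overlapped both KO arrays. On the scaled levels, KO differed from WT by 0.11 (log2) untreated and -0.04 with Ang II. Mcm7 read 1640 to 1881 and 1486 to 1679 in WT, 1609 to 1951 and 1827 to 2125 in KO (control, then Ang II, 10 spots each), and its level was 0.31 higher in KO untreated and 0.58 higher with Ang II. Mcm4 stood within 0.09 of WT in both comparisons (0.02 and -0.09), and Mcm3 was at -0.40 untreated and -0.14 with Ang II.

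Mcm6 was the exception by detection, with a single spot that passed the flag in WT control (11.4) and WT Ang II (12.7) and in neither KO control (7.53) nor KO Ang II (6.62). Against its KO levels as read, Mcm6 was 1.22-fold lower untreated and 1.60-fold lower with Ang II. Pcna, the sliding clamp of DNA polymerases, had spot means of 123 and 149 in WT (control, then Ang II) and 76.2 and 100 in KO, and its level was lower in KO by log2 differences of -0.38 and -0.32. Fen1, the nuclease that trims Okazaki fragments, read 619 to 682 in WT control, 487 to 576 in WT Ang II, 493 to 569 in KO control and 619 to 728 in KO Ang II, unscaled. On the scaled levels, Fen1 stood at 3.47 and 3.15 in WT and 3.51 and 3.69 in KO (control, then Ang II). Its KO minus WT difference was 0.04 untreated and 0.54 with Ang II.

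The nucleotide supply genes split. Rrm1 and Rrm2 encode the large and small subunits of ribonucleotide reductase, and the small subunit is the one made in S phase. Rrm1 levels were 2.76 and 2.67 in WT, 2.92 and 2.85 in KO (control, then Ang II), and KO stood 0.16 and 0.17 above WT. Rrm2, in contrast, read 130 to 156 over 9 spots in WT control and 89.7 to 108 over 10 spots in WT Ang II, but 11.7 to 22.2 in KO control and 14.8 to 25.7 in KO Ang II. No spot of a WT array overlapped any spot of a KO array. The unscaled spots of Mcm3, Mcm4, Pcna and Cks2 did not overlap between genotypes either, although their scaled differences ran only from -0.40 to 0.02. The share of all probes without such overlap was not counted. Relative to each array's 75th percentile, Rrm2 was 7.12-fold lower in KO untreated and 4.11-fold lower with Ang II (log2 -2.83 and -2.04). A second Rrm2 probe, with 1 spot, read 1.84 to 3.27 and was well above background on no array.

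Tk1, the thymidine salvage kinase, had means over 2 spots of 18.6 and 15.3 in WT, 12.6 and 9.59 in KO (control, then Ang II) and KO minus WT differences of -0.26 and -0.41. Tyms, thymidylate synthase, was well above background only in WT Ang II, where its 1 spot read 12.4. Ccne2, the cyclin that drives entry into S phase with Cdk2, was read from 1 spot at 55.7 (control) and 38.2 (Ang II) for WT, then 15.6 and 25.7 for KO. Ccne2 was thus 2.87-fold lower in KO untreated but 1.24-fold lower with Ang II, and no second spot was there to check it.

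Of the mitosis members, Cdk1, the cyclin-dependent kinase that starts mitosis, was well above background in WT only. Over 10 spots each, Cdk1 read 82.8 to 95.1 in WT control and 78.2 to 104 in WT Ang II. In KO control its 10 spots read 4.19 to 11.9, 2 of them well above background, and in KO Ang II 5.50 to 12, 3 of them well above background. The ranges did not overlap between genotypes and did within each genotype. Against its KO levels as read, Cdk1 was 9.54-fold lower in KO untreated and 8.63-fold lower with Ang II. Those KO levels lay above the lowest flagged level, so these folds are not strict minimums.

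Among its cyclin partners, Ccna2 showed a gap in both conditions and Ccnb2 could only be bounded. Ccna2, the cyclin of S phase and G2, read 28.4 and 35.2 on its 2 spots in WT control, 26.9 with 30.0 in WT Ang II, 4.04 with 6.93 in KO control, and 8 with 10.4 in KO Ang II. It was at least 4.52-fold lower in KO untreated and 2.58-fold lower with Ang II. A second Ccna2 probe, with 1 spot, read 1.70 to 1.81 and was well above background on no array. Ccnb2, a B-type cyclin, had means of 9.46 and 8.91 in WT control and WT Ang II and was not well above background in KO, which bounds its difference at 1.35-fold and 1.25-fold. Its spots read 5.72 and 13.2 in WT control and 5.64 and 12.2 in WT Ang II, with 1 of 2 flagged on each. Cks2, a small subunit bound to Cdk1, was well above background on all arrays, with means of 101 and 116 in WT, 63.7 and 85.5 in KO (control, then Ang II) and KO minus WT differences of only -0.36 and -0.18.

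Mki67, the proliferation antigen that coats mitotic chromosomes, was lower in KO by the same amount under both conditions. Its spots read 56.5 to 73.1 in WT control (9 spots), 56.0 to 69.6 in WT Ang II (10 spots), 16.8 to 22.6 in KO control (10 spots) and 17.4 to 21.3 in KO Ang II (8 spots). The genotypes did not overlap, and the difference was 2.71-fold untreated and 2.70-fold with Ang II (log2 -1.44 in both). Another Mki67 probe with 2 spots stood well above background only in WT, with means of 9.92 and 8.23, and read 7.79 and 2.91 in KO (control, then Ang II). Its scaled levels untreated were nearly equal, -2.57 in WT and -2.60 in KO. With Ang II they were -2.92 in WT and -4.16 in KO.

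**Figure D2:**
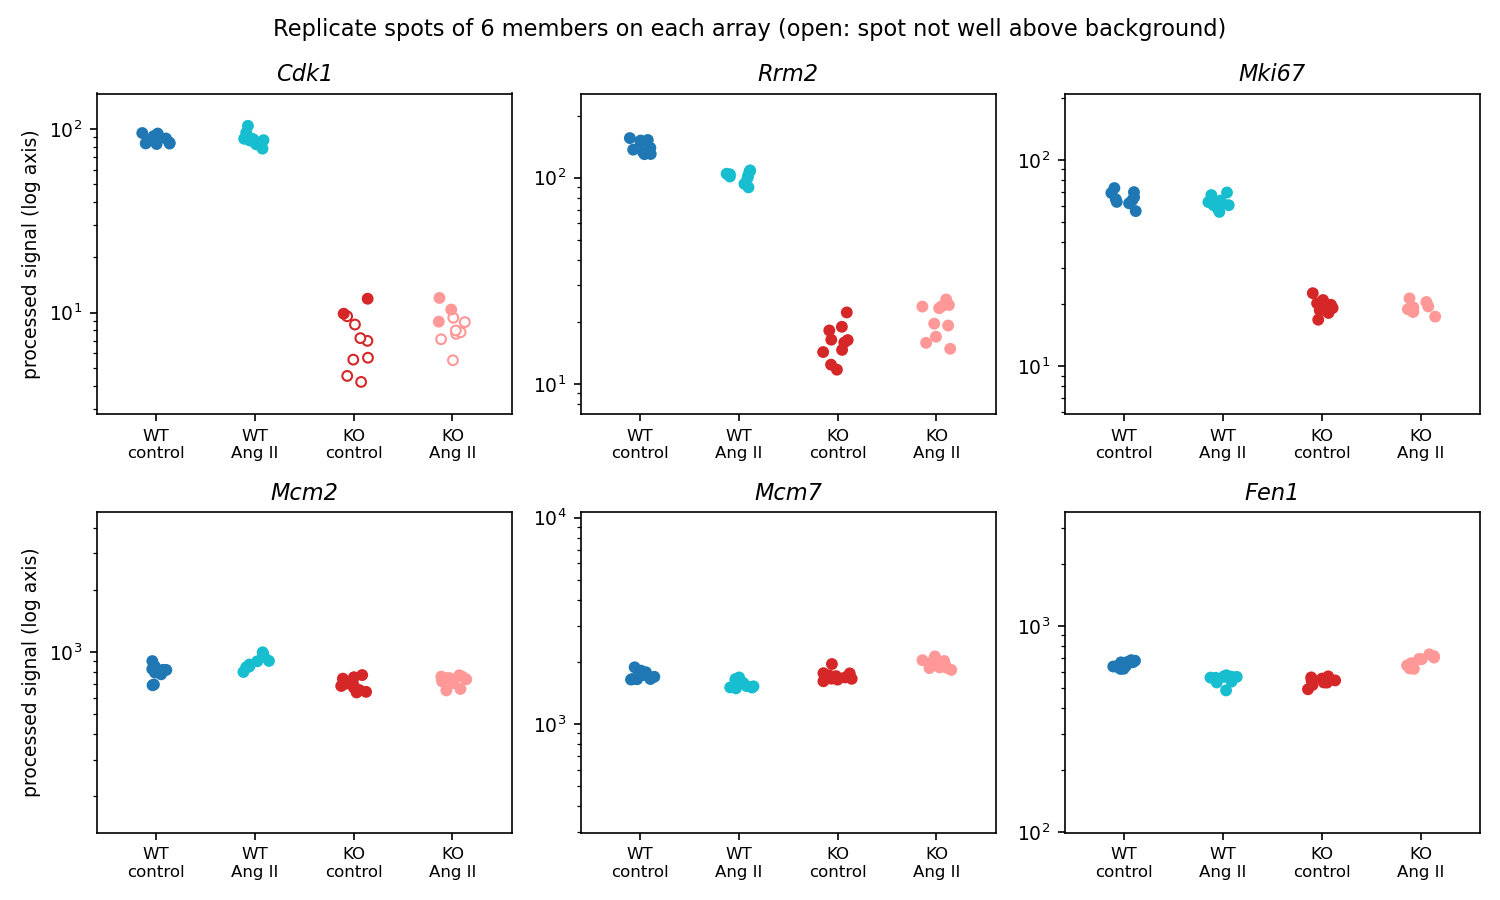
Processed signal of each replicate spot (log y axis, arbitrary units, not scaled, with its own range in each panel) for Cdk1, Rrm2, Mki67, Mcm2, Mcm7 and Fen1 in the 4 groups (x axis), with open points for spots not well above background. WT and KO spots of Cdk1, Rrm2 and Mki67 lie in separate ranges. For Mcm2, the WT control spots overlap the KO spots and the WT Ang II spots lie above them.

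Kinases and checkpoint genes of mitosis were graded. Bub1, a spindle checkpoint kinase, read 27.5 and 28.7 in WT control, 30.7 with 32.6 in WT Ang II, 9.03 with 11.1 in KO control, and 9.62 with 12.3 in KO Ang II, without overlap between genotypes. That is 2.25-fold lower in KO untreated and 2.41-fold with Ang II. Plk1, a kinase of mitotic entry and spindle assembly, read 41.0 to 51.2 and 31.3 to 44.2 in WT, 16.2 to 31.6 and 18.9 to 28.2 in KO (control, then Ang II, 10 spots each). Its difference was 1.59-fold untreated and 1.36-fold with Ang II, short of 2-fold in both.

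Aurka, the centrosomal Aurora kinase, read 25.2 and 28.9 in WT, 17 and 23.2 in KO on 1 spot (control first, as in the next values), with differences of -0.25 and -0.05. Its other probe, with 2 spots, gave 0.16 untreated and -0.50 with Ang II, so the probes disagreed in sign untreated. Cdc20, which activates the anaphase-promoting complex, read 50.8 and 68.2 in WT, 47.2 and 44.9 in KO on 1 spot and stood at 0.21 untreated and -0.34 with Ang II. These genes thus did not follow Cdk1 and Mki67 in size.

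Of the genes of the central spindle and of cytokinesis, those with 2 spots (Ect2, Kif20a and Nusap1) were lower in KO. Ect2, the exchange factor that activates RhoA at the cleavage furrow, read 15.5 and 20.4 in WT control and 13.1 and 15.9 in WT Ang II, and 2.04 and 2.84 in KO control and 1.86 and 4.69 in KO Ang II, all 4 below the flag for signal above background. The bounds were at least 2.55-fold lower untreated and, under Ang II, at least 2.04-fold. Kif20a, a kinesin of the central spindle, had means over 2 spots of 16.6 and 19.1 in WT, 8.84 and 7.43 in KO (control, then Ang II), a difference of 1.52-fold untreated and a bound of 2.15-fold with Ang II. Prc1, which bundles spindle midzone microtubules, read 40.6 and 45.8 in WT, 22.4 and 20.3 in KO on 1 spot, 1.46-fold lower untreated and 1.89-fold with Ang II. Nusap1, a spindle microtubule protein, had spots of 10.1 and 13.9 in WT control and 10.8 and 13.7 in WT Ang II and was not well above background in KO, a bound of 1.71-fold and 1.72-fold.

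Racgap1 and Ube2c went the other way on the arrays with Ang II, each from 1 spot. Racgap1, the Ect2 partner in cytokinesis, read 14.1 and 10.8 in WT, 8.43 and 15.2 in KO (control, then Ang II), with a bound of -0.43 untreated and a difference of 0.76 with Ang II. Another probe, with 2 spots, read 9.11 in WT control and was not well above background on any other array, and the third, with 1 spot, was well above background on none. Ube2c, the ubiquitin-conjugating enzyme of the anaphase-promoting complex, was well above background only in KO Ang II, at 13.6. Its other probe was well above background only in WT Ang II, so the 2 probes of Ube2c disagreed on which array held signal.

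**Figure D3:**
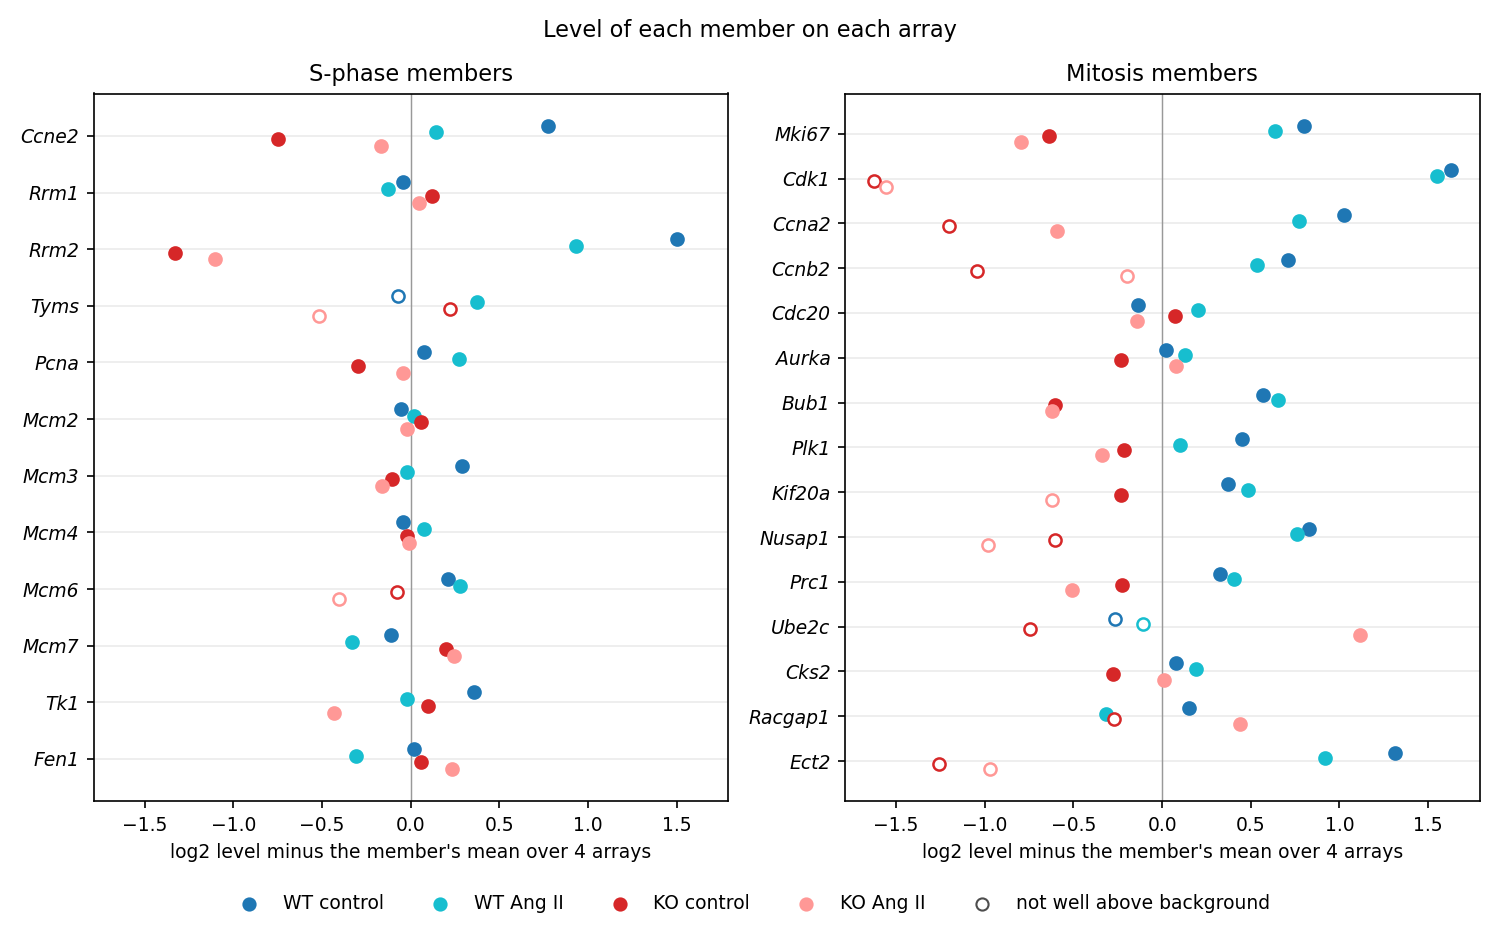
Level of the 27 detected members on each array, as log2 level minus the member's own mean over the 4 arrays (x axis), with S-phase members on the left and mitosis members on the right (y axis) and open points where the probe was not well above background. The WT points of Cdk1, Mki67, Ect2 and Rrm2 sit right of the KO points, and those of Mcm2 and Mcm4 sit on top of them.

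Taking untreated vessels, 25 members could be compared between KO and WT, and 7 were at least 2-fold lower in KO while 0 were higher by that size. Over all 9582 genes compared, 4.06% passed 2-fold downward and 2.92% upward. The 7 were Ccne2 and Rrm2 of the 11 S-phase members compared and Mki67, Cdk1, Ccna2, Bub1 and Ect2 of the 14 mitosis members. The median difference was -0.26 over S-phase members and -0.63 over mitosis members, beside 0.01 over all genes. Below 0 stood 6 of 11 S-phase members, 13 of 14 mitosis members and 49.5% of all genes. Bounds can only enter this count for genes seen in one genotype, so the members read on both arrays are given apart. Among those 18, 4 were at least 2-fold lower (Ccne2, Rrm2, Mki67 and Bub1), beside 2.77% of the 8770 genes read on both.

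With Ang II, 27 members could be compared, 7 at least 2-fold lower in KO and 1 at least 2-fold higher, beside 5.21% and 1.95% of 9644 genes. The 7 were Rrm2 among 12 S-phase members and Mki67, Cdk1, Ccna2, Bub1, Kif20a and Ect2 among 15 mitosis members, and the 1 higher was the bound of Ube2c. The median difference was -0.23 over S-phase members, -0.78 over mitosis members and -0.04 over all genes, and 9 of 12, 13 of 15 and 53.8% of all genes stood below 0. Of the 19 members read on both arrays, 4 were at least 2-fold lower (Rrm2, Mki67, Ccna2 and Bub1), beside 4.06% of genes read on both.

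The untreated comparison and the one with Ang II share no array, and 6 of 25 members were at least 2-fold lower in both (Rrm2, Mki67, Cdk1, Ccna2, Bub1 and Ect2), against 1.67% of the 9273 genes compared in both. At least 2-fold higher in both were 0 members and 0.539% of genes. Of the 6, Rrm2, Mki67 and Bub1 were read on all 4 arrays. Cdk1 and Ect2 were bounds in both comparisons, and Ccna2 was a bound untreated. A negative difference in both was found for 6 of 11 S-phase members and 12 of 14 mitosis members, against 36.8% of genes. Mcm6, Cdk1, Ccnb2, Nusap1 and Ect2, well above background in WT only, could enter with a negative sign only. The arrays do share a slide and, perhaps, animals or a pool, so they are not independent replicates of the genotype.

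**Figure D4:**
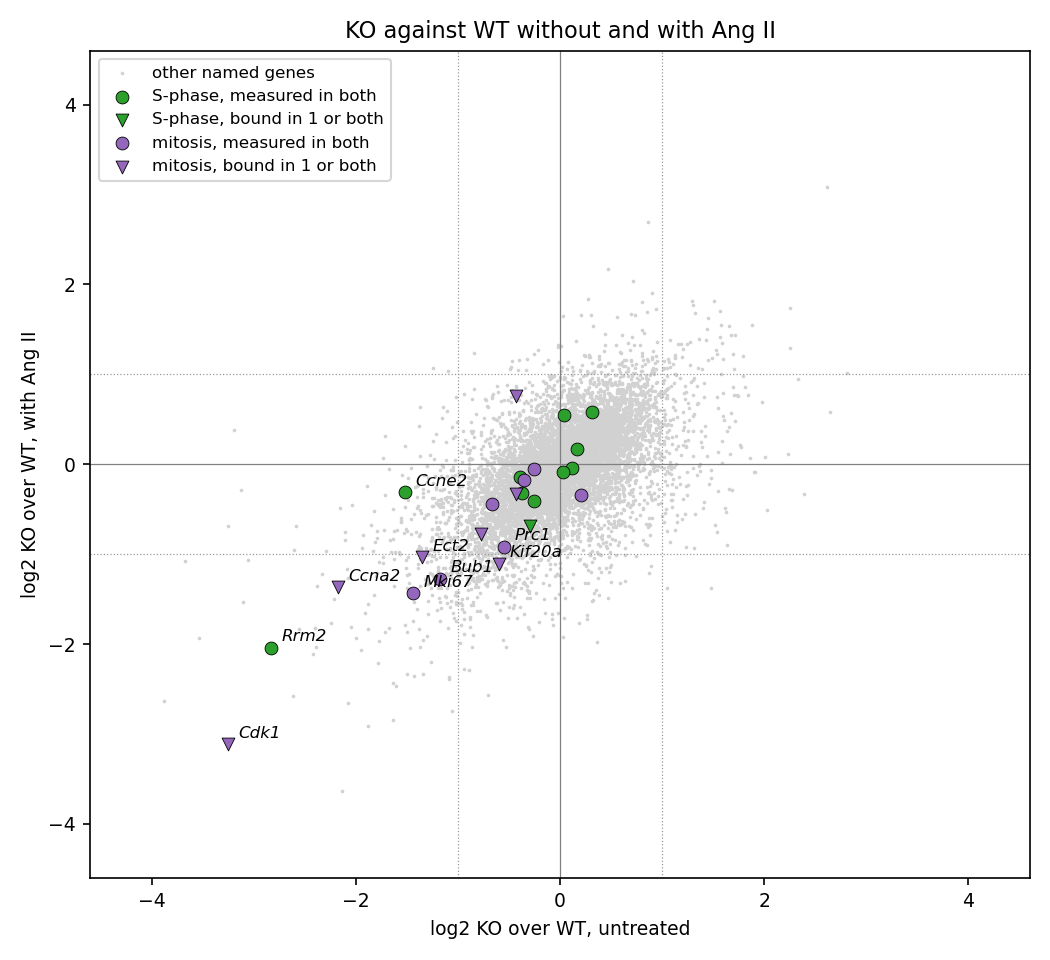
KO minus WT difference (log2) in untreated vessels (x axis) against that with Ang II (y axis) for S-phase members (green), mitosis members (purple) and all other named genes (grey), with triangles where at least 1 value is a bound and dotted lines at 2-fold. Cdk1 (-3.25 and -3.11) and Rrm2 (-2.83 and -2.04) lie at the lower left, and most other S-phase members lie within the dotted lines.

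S-phase and mitosis members were set side by side on genes read on all 4 arrays, where no value is a bound. The median of 10 S-phase members was -0.12 untreated and -0.12 with Ang II, and that of 7 mitosis members (Mki67, Cdc20, Aurka, Bub1, Plk1, Prc1 and Cks2) was -0.55 and -0.44. Over the 8600 genes read on all arrays the medians were 0.03 and -0.02. The gap between phases in the whole set was 0.37 untreated and 0.55 with Ang II, S-phase median minus mitosis median. It was 0.17 with Ang II when Mki67, Ccna2 and Cdk1, which are expressed over more than 1 phase, were left out. With the normexp background correction, which adds an offset of 50 to every signal, the gap with Ang II was -0.01, and 2 members untreated and 0 with Ang II were at least 2-fold lower. Most of these members read below 100, where such an offset compresses a fold.

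One additive limma fit over the 4 arrays, with genotype and treatment as terms and 1 residual degree of freedom, was the only test the design allowed. It takes the 2 arrays of a genotype as its replicates and reads dim probes as they are. No gene passed an adjusted p of 0.05 for KO minus WT (0.0% of 9387), hence 0 of 25 members, and the lowest adjusted p of any gene in limma was 0.0709. Cdk1 had this value, which the adjustment gave to other genes as well, with a difference of -3.18 (SE 0.15). Rrm2 (-2.43, SE 0.25), Ect2 (-2.23, SE 0.22) and Mki67 (-1.44, SE 0.15) each had an adjusted p of 0.0908 by limma. At an unadjusted p under 0.05, 11 of 25 members were lower and 0 higher, 1 of 11 S-phase and 10 of 14 mitosis members. Of all genes, 15.3% were lower and 26.1% passed in either direction. Among these 10 mitosis members, Cdk1, Ccnb2, Nusap1 and Ect2 passed the flag in WT only, so their entry into the fit favoured a lower reading in KO. With the limma fit limited to genes flagged on all 4 arrays, 7 of 17 members passed that unadjusted p, 6 of them lower. Beside them stood 28.6% of genes in either direction. Without a trend in the prior variance, the lowest adjusted p of any gene ran from 0.0528 to 0.362 over 6 other settings of scaling, background, probes and filter. When limma let the prior variance follow the mean level (trend), 7 members passed beside 13.9% of genes, Cdk1 (adjusted p = 0.000469), Rrm2 (0.00126), Mki67 (0.00754), Ccna2 (0.0143), Ect2 (0.0187) and Bub1 (0.0308) lower and Mcm7 (0.0424, log2 0.44) higher.

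After Ang II, 1 member in KO and 0 in WT passed 2-fold. In WT vessels 26 members could be compared, and 0 stood 2-fold or more above and 0 below their control after Ang II, beside 2.02% and 0.999% of 9812 genes. The median was -0.15 over S-phase members, -0.07 over mitosis members and 0.04 over all genes. Values ran from Ccne2 at -0.63 and Rrm2 at -0.57 to Cdc20 at 0.34 among members read on both arrays. Mki67 (-0.16), Cdk1 (-0.08) and Bub1 (0.08) stood near 0.

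In KO vessels 21 members could be compared after Ang II, 1 higher by 2-fold or more (the bound of Ube2c) and 0 lower, beside 0.443% and 1.4% of 9264 genes. The medians were 0.03 over S-phase and -0.02 over mitosis members, and -0.00 over all genes. Mki67 again stood at -0.16, Ccne2 at 0.58 and Rrm2 at 0.22. In the limma fit over both genotypes, Ang II minus control had 0 of 25 members and 0.0% of genes past an adjusted p of 0.05, 1 member at an unadjusted p under 0.05 beside 3.84% of genes, and a lowest adjusted p of 0.99996 (0 genes with the trend as well). Each Ang II comparison shares its arrays with the genotype comparisons, so these values are not further evidence on genotype.

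**Figure D5:**
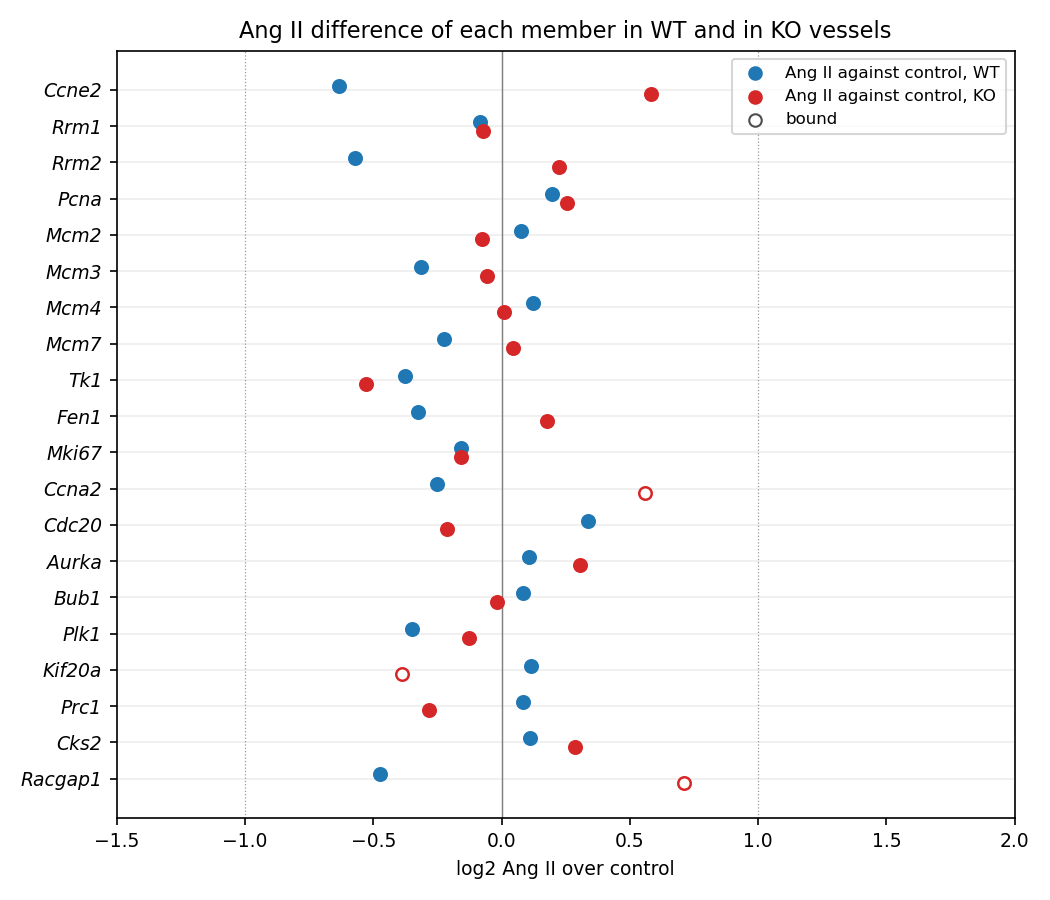
Ang II minus control difference (log2, x axis) of the 20 members compared in both genotypes (y axis), in WT (blue) and in KO (red), with open points for bounds and dotted lines at 2-fold. All points lie within 2-fold, and the widest separation of measured values is that of Ccne2 (-0.63 in WT and 0.58 in KO).

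Other probes of the members were read where they were well above background. Untreated, 5 of 6 such probes had the opposite sign to the one used for KO minus WT, and with Ang II 1 of 7 had, and all stayed under 2-fold (at most 0.45 and 0.50 in size). Mcm2 was read by another probe with 1 spot that gave -0.24 untreated, against 0.11, and -0.02 with Ang II. Mcm4 was read by a further probe with 2 spots that gave -0.01 untreated and -0.11 with Ang II and by one with 1 spot that gave -0.19 and 0.00, and Cks2 by one that gave -0.13 and -0.24. A second Mcm3 probe, with 1 spot of 9.19 in WT control, gave 0.45 untreated where the brighter one gave -0.40. For Prc1 the other probe was well above background in WT only, at 12.2 and 13.0. Averaging the probes of a gene left Mki67 at -0.74 untreated, under 2-fold. Second probes of Rrm2, Ccna2 and Tk1 and further ones of Mki67 were well above background on no array.

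Further replication genes that are no members had medians near 0. The counts of these and the following lists stand beside 4.06% of all genes lower and 2.92% higher untreated, and 5.21% and 1.95% with Ang II. Of 27 compared untreated, 4 were at least 2-fold lower and 0 higher with a median of -0.07, and of 28 compared with Ang II, 1 was lower and 0 higher with a median of 0.02. Cdc45, the helicase co-activator, was at -1.06 and -0.51. Rpa3, the small subunit of replication protein A, was at -1.07 and -1.15, and Rfc3, a clamp loader subunit, at 0.76 and 0.46.

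Further mitosis genes had medians below 0 in both comparisons. Of 22 compared untreated, 6 were at least 2-fold lower and 1 higher with a median of -0.61, and of 25 with Ang II, 7 were lower and 1 higher with a median of -0.66. Most of the lower ones were bounds, and a gene seen in WT only can only come out lower. Of the 15 read on both arrays untreated, 1 was lower and 1 higher, and of the 17 with Ang II, 3 and 1. Beside these stood 2.77% and 4.06% of genes read on both arrays as lower (untreated, then Ang II). Spc25, of the NDC80 kinetochore complex, was at -0.99 and -1.07, Stmn1, a microtubule destabiliser, at -1.04 and -0.81, and Dlgap5, a spindle protein, at -0.39 and -1.59. Cenpn, a centromere protein, was the 1 higher in both, at 1.11 and 1.12. Cdca3 and Nek2, named here after their values were seen, were read at 36.8 and 25.8 in WT control and were not well above background in KO. They were bounded at -2.39 and -2.04 (Cdca3) and -1.88 and -1.83 (Nek2).

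The regulators of these programmes did not stand in 1 direction. Among 12 transcription factors of the cell cycle, 1 was at least 2-fold lower untreated and 2 with Ang II, with medians of -0.25 and -0.04. Rb1, the pocket protein that restrains E2F, was at -1.10 and -1.82, Tfdp1, a dimer partner of E2F, at -0.46 untreated and on the 2-fold line with Ang II, and the MuvB subunit Lin37 at 0.48 and 0.41. Foxm1 and E2f1, named after their values were seen, stood at 0.09 and 0.03 and at -0.36 and -0.22. Of 8 G1 cyclins and kinases, 1 was at least 2-fold lower in each comparison, Ccne1 untreated (-1.01, and -0.66 with Ang II) and Cdk6 with Ang II (a bound of -1.35, and -0.47 untreated), the latter named after its values were seen.

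Among 13 CDK inhibitors and other antiproliferative genes, 1 was at least 2-fold lower and 1 higher untreated and 1 was lower with Ang II. Ccng2, a cyclin linked to cell cycle arrest, was at -1.79 and -1.21, and the CDK inhibitor gene Cdkn1b at -0.98 and -0.94. The 1 higher untreated was Gadd45g, named after its values were seen, at 1.09 and -0.22. Of the 13, 5 stood below 0 and 5 above 0 in both comparisons, with medians of 0.03 untreated and -0.08 with Ang II.

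Markers of cell types differed between the genotypes too. All 10 smooth muscle markers were well above background, with medians of 0.66 untreated and 0.54 with Ang II. Macrophage markers, 10 of 11 well above background on at least 1 array and Mrc1 on none, had medians of -0.85 and -0.41, and their signals summed over the array's 75th percentile came to 60.4 and 69.8 in WT and to 32.2 and 39.7 in KO (control, then Ang II). Fibroblast markers, 10 of 11, had medians of -0.22 and -0.69 and sums of 838, 865, 587 and 518. Endothelial markers, 6 of 9 with Tie1 and Emcn dim on all arrays, had medians of -0.58 and -0.12 and sums of 24.2, 21.5, 18.3 and 19.9.

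Lymphatic endothelial markers, 6 of 6, had medians of -1.64 and -0.98 and sums of 204, 267, 160 and 144. Of these values, 4 of 6 untreated and 3 of 5 with Ang II were bounds, among them every one past 2-fold. White adipocyte markers, 3 of 7 with Lep, Cidec and Lpl dim, had medians of -1.80 and -1.22 and sums of 2.42, 1.88, 0.884 and 1.26. Bounds made up 2 of their 3 values untreated and 1 of 3 with Ang II. T and B cell markers, 2 of 10 with Cd3e, Cd3g, Cd8a and Cd79b among the dim ones, stood at 0.07 and 0.14 with sums of 2.44, 2.39, 2.44 and 2.49, and erythroid markers, 4 of 6, at 0.12 and -0.27 with sums of 19.2, 34.1, 20.4 and 29.0. The part of these cell types in the lower mitosis genes of KO vessels was not tested.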

How the data were processed

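Total RNA of rat vessels was labelled with Cy3 and hybridised to 1-colour Agilent arrays, per the labels' protocols, 1 array for each genotype (WT, KO) without and with Ang II, grouped by the labels. The members and all gene lists were chosen with earlier results of these data known. The deposited intensities were background-subtracted by the authors' scanner software and are not scaled between arrays, per the file headers. That software was Agilent Feature Extraction, for which the file headers give version 10.7.1.1 and the submitters' processing notes 12.1.1.1. The authors' deposited value table is in log2 and, on each array, differed from the log2 signals by 1 constant (to 0.01) for 98.3% to 98.4% of probes.

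From the 58717 spots of each array, spots with the outlier flag (301 to 372 per array) were left out and the spots of each of 45598 probes averaged. Probes were named through RefSeq identifiers in a table of assembly GRCr8: 21107 probes were named (16580 genes), 24487 were not and 4 were dropped. Log2 signals were scaled by each array's 75th percentile. No depth applies to arrays, and 1 array per group limits the precision. The median SD between replicate spots of a probe was 0.0689 to 0.0786 (log2), which is technical. Members at least 2-fold apart were called by size alone. The only test was limma 3.58.1 (R 4.3.3) with Benjamini-Hochberg adjustment over all genes on at least 2 arrays. Its code was run on arrays simulated from the fit's own prior, which checks the code and not the test on these arrays. Non-member genes were named as the 4 of each list with the largest mean difference among those well above background on all 4 arrays. Alternatives covered scaling, background correction, probe choice, dim probes, phase assignment and the limma prior. Some genes of the further lists are not reported here by name.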

Additional observations from a re-analysis of the deposited data

Results flagged for a closer look

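For 5 members the Ang II difference had opposite signs in WT and KO, 3 of them measured on all arrays and 2 with a bound in KO, each beyond 0.21 (log2). That is 2 times a technical spread, derived from the median SD of replicate spots within an array over all probes. It holds no spread between arrays or animals. Dim members spread wider, with a spot SD in KO control of 0.28 for Rrm2 and 0.55 for Ccna2. The difference between genotypes was not tested, since each group holds 1 array. Ccne2, the S-phase cyclin, stood at -0.63 in WT and 0.58 in KO, a gap of 1.21 from 1 spot per array. Rrm2, the small subunit of ribonucleotide reductase, stood at -0.57 in WT and 0.22 in KO, a gap of 0.79. Cdc20, the activator of the anaphase-promoting complex, stood at 0.34 in WT and -0.21 in KO, a gap of -0.55 from 1 spot per array. Ccna2, the cyclin of S phase and G2, stood at -0.25 in WT and at least 0.56 in KO, a gap of at least 0.81. Racgap1, the Ect2 partner in cytokinesis, stood at -0.47 in WT and at 0.71 in KO against a dim control as read. This was a gap of 1.19 from 1 spot per array.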

How the results depend on the processing

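Medians and counts of the members were recomputed under 217 alternatives of 27 results. Of these, 159 kept their value within the technical spread (0.105, log2), or a count within 1.5 times, and 58 moved further. The sign of a median or gap turned in 11, of which 9 started from a value within that spread of 0. The 75th percentile over probes detected on all 4 arrays and quantile normalization moved none of the 27 further than that, and the deposited value table none of the 24 recomputed on it (the limma fit was not run on that table). Of the 16 member differences of at least 2-fold, 0 turned sign in 111 recomputed values, and 14 of 16 were under 2-fold with normexp, Cdk1 at -1.05 untreated and -0.97 with Ang II. At other settings 5 values were under 2-fold: both values of Ube2c (0.20 after Ang II in KO, 0.04 between genotypes) and Mki67 untreated when a gene's probes were averaged, and Ect2 with Ang II under both other scalings. The cause was not tested, except that normexp adds 50 to each signal by construction. No paired analysis was possible because each group holds 1 sample. Leaving out an array was not run, since it leaves 0 residual degrees of freedom. The signal over background limits most mitosis members in KO.

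With normexp, KO minus WT untreated had medians of -0.16 over all members, -0.13 over S-phase members and -0.19 over mitosis members, a gap between phases of 0.066 and 2 members at least 2-fold lower. With Ang II the same values were -0.092, -0.10, -0.092, a turned gap of -0.0094 and 0 members, with 0 higher, and for Ang II in KO 0 were higher. With probes averaged, the S-phase median was -0.041 for Ang II in WT (gap 0.026), 0.13 for Ang II in KO (mitosis -0.13, gap 0.26, 0 members higher) and -0.063 for KO minus WT untreated (gap 0.61), and 0 members were higher in KO with Ang II.

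With members read on both arrays only, the values were a mitosis median of -0.13, a gap of 0.15 and 0 higher for Ang II in KO, an S-phase median of -0.12 and 4 lower for KO minus WT untreated, and -0.12 over S-phase members, -0.44 over mitosis members, a gap of 0.33, 4 lower and 0 higher with Ang II. The restriction to genes read on all 4 arrays was added after seeing the data. It gave the same values but for 3 lower with Ang II, and for Ang II in WT an S-phase median of -0.27, a mitosis median of 0.083 and a gap of -0.35.

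With no filter on dim probes, Ang II in WT had 1 member higher and 2 lower, and Ang II in KO 1 lower and a mitosis median of -0.15. KO minus WT untreated then had an S-phase median that turned to 0.024, a gap of 0.66, 1 member higher and 11 lower, and with Ang II a gap of 0.66 and 11 lower. Without the members expressed over more than 1 phase, the gap was -0.24 for Ang II in WT and 0.17 for KO minus WT with Ang II. With a trend in limma's prior, 7 members and 1307 genes passed for KO minus WT, where 0 and 0 did without it.

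Over all genes, the split of higher and lower calls for Ang II in KO was 41 and 130, and 55 and 102 with quantile normalization. With normexp, it was 25 and 89 for KO minus WT untreated, where it had been 280 and 389, 18 and 137 with Ang II, where it had been 188 and 502, 29 and 8 for Ang II in WT, where it had been 198 and 98, and 0 and 4 for Ang II in KO. Without a filter on dim probes it was 719 and 795 for Ang II in WT.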
